A study of Mus musculus with 15 samples.

Results

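The voltage-gated sodium channels, voltage-gated calcium channels and hyperpolarization-activated HCN channels were examined for H3K4me3 at their promoters in the adult amygdala. Members were the protein-coding genes of GENCODE version M21 that encode the pore-forming α or auxiliary β subunits of sodium channels (Scn genes ending in a or b), the α1, α2δ and β subunits of calcium channels (Cacna1, Cacna2d and Cacnb genes) and the HCN channels (Hcn genes). The gene symbol alone chose them, and 36 of 21938 protein-coding genes were found. The values come from WT mice, adult males of the F1 generation of a 129xB6 cross, carrying wild-type Kmt2a and Kdm5c. Amygdala nuclei of all cell types, about 20000 per reaction, were digested with micrococcal nuclease and immunoprecipitated with a rabbit monoclonal antibody against H3K4me3, in the presence of spike-in nucleosomes. The authors called peaks against the input and deposited 1 list of summits for the 2 WT mice together, so there is no spread between replicates, no test was possible, and the list does not give the depth behind each value. The Kmt2a-HET, Kdm5c-KO and double-mutant samples of the series were not analysed here.

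Sodium channels open on depolarization and carry the rising phase of the action potential. Calcium channels turn depolarization into calcium entry, which drives transmitter release at terminals and signalling to the nucleus in the soma, and HCN channels open on hyperpolarization and set pacemaking and dendritic integration. Several members are best known from other tissues: Scn4a and Cacna1s from skeletal muscle, Scn9a, Scn10a and Scn11a from peripheral sensory neurons, Cacna1f and Cacna2d4 from the retina, and Scn7a from glia and sodium-sensing organs. H3K4me3 sits on nucleosomes beside the transcription start site (TSS) of promoters that are active or poised. A promoter summit is here the point of highest enrichment of a peak, within 1 kb of any annotated TSS of the gene. Its score is the authors' value, read as −log10 of the q-value, and it grows with depth as well as with enrichment. In tissue of mixed cell types, a mark carried by few cells and a weak mark carried by many cannot be told apart.

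The list held 24139 summits on chromosomes 1 to 19, X and Y, with a median score of 102.3, quartiles of 15.02 and 201.2 and a highest score of 341.7. Genes of the labelled tissue carried promoter summits, with 8 of 8 neuronal markers (scores of 104.8 to 272.5) and 5 of 5 genes listed for the amygdala (48.32 to 183.5). So did 4 of 4 astrocyte markers (29.18 to 174.3) and 4 of 5 oligodendrocyte markers (81.14 to 182.9). Markers of other tissues mostly did not. A summit lay at 1 of 5 skeletal muscle markers (Ckm, 9.05), 1 of 4 heart markers (Tnnt2, 18.6) and 0 of 4 liver markers. A summit also lay at 1 of 5 markers of peripheral sensory neurons (Prdm12, 16.1) and 1 of 4 retina markers (Nrl, 48.7). Of all protein-coding genes, 64.7% had a promoter summit. The lowest astrocyte and amygdala scores, 29.18 and 48.32, were below that of Nrl, so the score alone does not separate the tissues.

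To show how CpG content differs between the starts of these genes, the 200 bases just upstream of the outermost TSS are given below. They run 5′ to 3′ on the gene's strand and come from the RefSeq copy of GRCm38. The best promoter summits of these genes lie outside the printed bases, and some of these starts carried no mark. CpG dinucleotides, which are dense in the promoters of most broadly used genes and sparse elsewhere in the genome, are in capitals. The first 3 sequences belong to the members with the highest CpG content around this TSS and the next 3 to those with the lowest, among the 34 members whose window holds no annotated exon. Scn2a and Scn2b were added after their values were seen, because their promoters combine few CpGs with high scores.
Cacna1i, chr15:80287038-80287237, plus strand: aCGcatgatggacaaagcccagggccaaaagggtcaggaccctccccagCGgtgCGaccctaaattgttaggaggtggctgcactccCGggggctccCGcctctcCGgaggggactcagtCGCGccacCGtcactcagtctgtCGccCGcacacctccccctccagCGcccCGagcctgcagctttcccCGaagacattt
Cacna1b, chr2:24763153-24763352, minus strand: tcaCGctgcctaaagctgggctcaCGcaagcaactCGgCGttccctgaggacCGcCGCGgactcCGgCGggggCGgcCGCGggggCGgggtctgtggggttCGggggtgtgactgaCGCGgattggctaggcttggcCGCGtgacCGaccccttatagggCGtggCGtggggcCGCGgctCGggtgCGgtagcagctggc
Cacna2d1, chr5:15934491-15934690, plus strand: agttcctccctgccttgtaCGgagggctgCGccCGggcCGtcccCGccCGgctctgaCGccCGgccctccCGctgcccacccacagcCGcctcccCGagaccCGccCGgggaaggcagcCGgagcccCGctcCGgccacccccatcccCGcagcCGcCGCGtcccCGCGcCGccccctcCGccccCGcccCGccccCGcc
Cacna1f, chrX:7606883-7607082, plus strand: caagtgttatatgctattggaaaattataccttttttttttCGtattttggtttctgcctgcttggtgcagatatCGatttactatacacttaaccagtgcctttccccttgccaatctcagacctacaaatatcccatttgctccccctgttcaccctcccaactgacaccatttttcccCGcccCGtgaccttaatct
Cacna1a, chr8:84388240-84388439, plus strand: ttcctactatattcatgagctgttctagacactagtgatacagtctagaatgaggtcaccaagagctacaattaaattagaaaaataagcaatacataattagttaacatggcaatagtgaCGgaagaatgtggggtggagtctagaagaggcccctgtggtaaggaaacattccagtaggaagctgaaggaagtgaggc
Cacna2d4, chr6:119236326-119236525, plus strand: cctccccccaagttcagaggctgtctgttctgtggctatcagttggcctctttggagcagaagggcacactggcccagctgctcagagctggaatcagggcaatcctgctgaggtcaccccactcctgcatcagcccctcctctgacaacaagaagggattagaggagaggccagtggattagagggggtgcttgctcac
Scn2a, chr2:65620571-65620770, plus strand: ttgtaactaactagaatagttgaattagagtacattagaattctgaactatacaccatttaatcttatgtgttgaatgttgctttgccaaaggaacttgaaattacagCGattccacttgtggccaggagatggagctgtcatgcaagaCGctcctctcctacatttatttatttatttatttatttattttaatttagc
Scn2b, chr9:45117582-45117781, plus strand: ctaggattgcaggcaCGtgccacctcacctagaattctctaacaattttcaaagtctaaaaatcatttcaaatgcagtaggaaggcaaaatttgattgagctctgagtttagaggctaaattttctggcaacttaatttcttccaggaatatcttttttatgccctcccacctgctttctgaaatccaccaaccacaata
The windows of Cacna1i, Cacna1b and Cacna2d1 hold 14, 25 and 27 CpGs, and their best promoter summits scored 200.2, 210.2 and 212.0. Those of Cacna1f, Cacna1a and Cacna2d4 hold 4, 1 and 0 CpGs, and no summit lay within 1 kb of the outermost TSS in any of these genes. Cacna1a and Cacna2d4 were marked at TSSs farther inside the gene. The windows of Scn2a and Scn2b hold 2 and 1 CpGs, yet their promoter summits scored 211.5 and 219.0.

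Of the 36 channel genes, 31 had a promoter summit in the WT mice, or 86.1%, against 64.7% of all protein-coding genes. Long genes were marked more often, and the channel genes are long. Under 50 kb, 9 of 11 members had a promoter summit, against 58.3% of all protein-coding genes of that length. From 50 to 100 kb it was 3 of 5 against 83.3%, so the members had the lower share there. From 100 to 200 kb it was 10 of 11 against 88.5%, and at 200 kb and over 9 of 9 against 90.4%. In 28 of the 36, or 77.8%, the best promoter summit scored 102.3 or more, the median of the list, against 52% of all protein-coding genes. The members form the complete set named by the rule, so no interval is given for their shares. Among genes with a promoter summit the scores of the members were not higher than elsewhere, with a median of 185.4 (quartiles 156.1 and 211.7) for the 31 members and of 194.6 (129.8 and 230.2) for the 14197 protein-coding genes. The 5 members with no promoter summit were Scn4a, Scn10a, Scn11a, Cacna1f and Cacna1s, and all 5 are among the genes named above as best known from other tissues. Scn9a, Scn7a and Cacna2d4, from the same list, had a promoter summit. That list was drawn from general knowledge, with earlier results of these data known, so the match is a description and not a test.

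**Figure D1:**
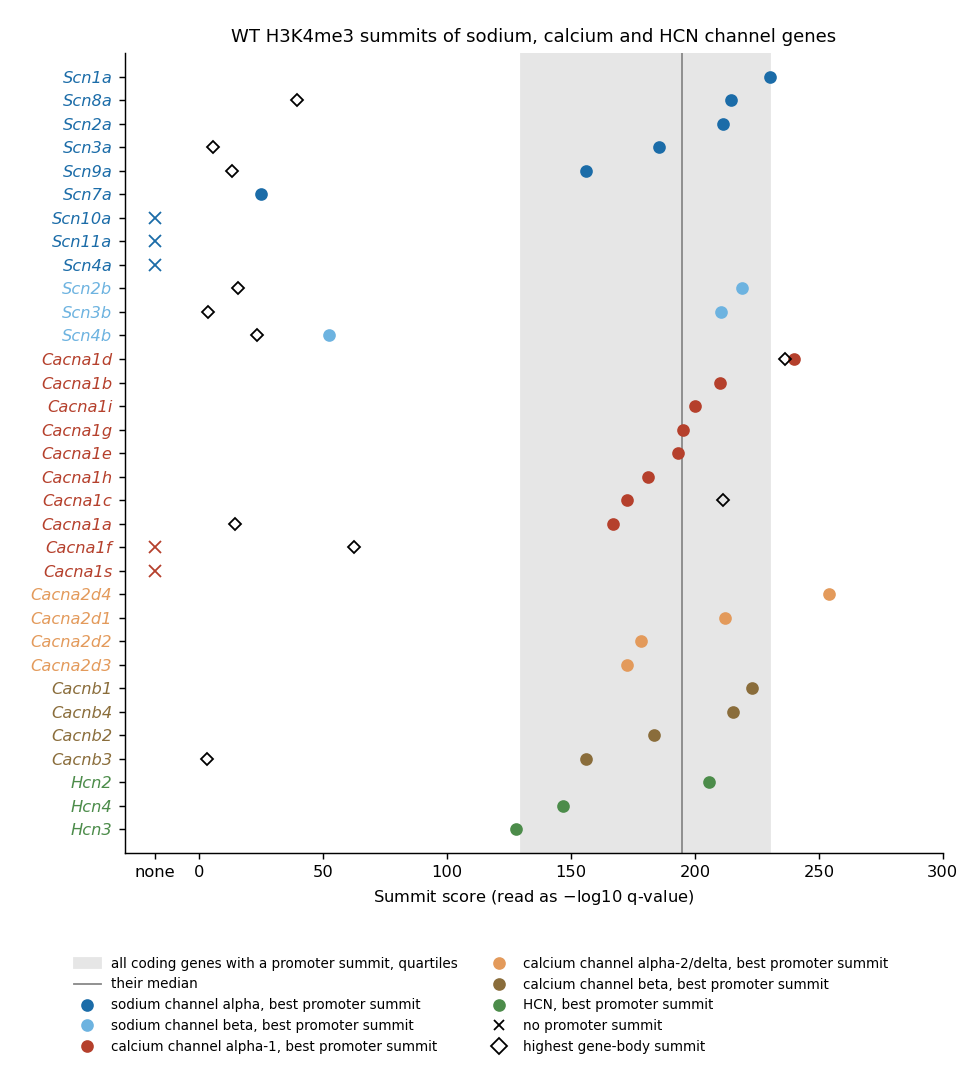
Score of the best WT promoter summit of each channel gene named in the text (filled circles, coloured by family), with crosses for the 5 genes without one and open diamonds for the highest summit inside the gene and over 1 kb from its TSSs. The grey band and line give the quartiles and median of all protein-coding genes with a promoter summit (129.8, 230.2 and 194.6), and most circles lie inside the band, with Scn7a and Scn4b far below it.

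The α subunits of sodium channels form the pore. The 3 α subunits that carry most sodium current of adult central neurons were all marked. Scn1a, prominent in inhibitory interneurons, scored 230.4. Scn8a, enriched at the axon initial segment and nodes, scored 214.3, and Scn2a, an early and unmyelinated-axon channel, scored 211.5. Scn3a, known mainly from embryonic brain, scored 185.4. These 4 scores were higher than 69.1 to 86.9% of the list, which also holds summits away from promoters. Among all protein-coding genes with a promoter summit the median was 194.6, with quartiles of 129.8 and 230.2. Scn2a and Scn8a lay between that median and the upper quartile, Scn1a was about at the upper quartile, and Scn3a was below the median. Scn9a, a channel of nociceptors, scored 156.1. Scn7a, an atypical member that responds to extracellular sodium, scored 24.96, higher than 31.3% of the list. Scn10a, Scn11a and Scn4a had no summit at a promoter or inside the gene.

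Several of these α subunit genes lie in clusters. On chromosome 2 of GRCm38, Scn3a (65457118 to 65567627, minus strand) and Scn2a (ENSMUSG00000075318, 65620771 to 65767447, plus strand) stand head to head with 53.1 kb between them. They are followed after 503.3 kb by Scn1a (ENSMUSG00000064329, 66270778 to 66440840), Scn9a (66480080 to 66634962) and Scn7a (66673425 to 66784914), all on the minus strand and 39.2 and 38.5 kb apart. All 5 carried promoter summits, and no summit lay in the intervals between Scn3a and Scn2a, between Scn1a and Scn9a or between Scn9a and Scn7a. The last 3 genes of this cluster differed widely, with 230.4 at Scn1a, 156.1 at Scn9a and 24.96 at Scn7a. On chromosome 9, Scn10a (119608456 to 119719322) and Scn11a (119753759 to 119825456) lie in line on the minus strand, 34.4 kb apart, with no summit in either gene or between them. The summit closest to any TSS of Scn11a was 69201 bp away, near the TSS of Wdr48.

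The β subunits are single-pass proteins that modify gating and cell adhesion. Scn2b scored 219.0, Scn3b 210.4 and Scn4b 52.5, and of these Scn4b alone was below the median of the list. Scn2b and Scn4b are neighbours on the plus strand of chromosome 9, 8.32 kb apart, with no summit between them. Scn4b, whose protein is known for its part in resurgent sodium current and is abundant in striatum, also held summits of 5.06 and 23.3 in an intron.

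The α1 subunits of calcium channels form the pore and name the current. The L-type genes of brain, Cacna1c and Cacna1d, scored 172.6 and 240.0. The summit used for Cacna1c lay 974 bp from the nearest GENCODE TSS but 1494 bp from the nearest RefSeq TSS. Within 1 kb of a RefSeq TSS, the highest summit of Cacna1c scored 115.8. Cacna1f and Cacna1s, the L-type genes of retina and skeletal muscle, had no promoter summit. The P/Q-type gene Cacna1a, the N-type gene Cacna1b and the R-type gene Cacna1e, which feed transmitter release, scored 167.0, 210.2 and 193.1. The T-type genes Cacna1g, Cacna1h and Cacna1i, which open at low voltage and drive burst firing, scored 195.1, 181.2 and 200.2. The 8 marked genes thus spanned 167.0 to 240.0, and all 8 were above the median of the list. Of all protein-coding genes with a promoter summit, 80.4% were at or above it.

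At Cacna1f (ENSMUSG00000031142, chromosome X, 7607083 to 7635196, plus strand) the nearest summit lay 1864 bp upstream of a TSS and scored 141.9. It is within 1 kb of TSSs of the neighbouring gene Ccdc22. A further summit, of 62.5, lay in an intron 3624 bp downstream of the nearest TSS. At Cacna1s the nearest summit was 1566 bp upstream and scored 5.12, and it lies at a TSS of Ascl5. The absence of a promoter summit at these genes therefore holds for the window of 1 kb, and with a window of 3 kb both genes counted as marked.

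The α2δ subunits, which carry the channels to the surface and bind gabapentin in the case of Cacna2d1 and Cacna2d2, all had a promoter summit. Cacna2d1 scored 212.0, Cacna2d2 178.4 and Cacna2d3 172.5. Cacna2d4 had the highest promoter score of all 36 members, 254.2, but its place in the order does not rest on its own start. The summit, at 119330413 on chromosome 6, lay 93.9 kb inside the gene, 356 bp upstream of the TSS of a processed transcript of Cacna2d4 and 344 bp downstream of a TSS of Lrtm2, which is transcribed from the other strand. With TSSs of protein-coding transcripts only, Cacna2d4 had no promoter summit.

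The cytoplasmic β subunits, which traffic the α1 subunit and tune its gating, scored 222.8 (Cacnb1), 215.3 (Cacnb4), 183.4 (Cacnb2) and 156.2 (Cacnb3). The summit of Cacnb1 also lay within 1 kb of a TSS of the processed transcript Gm11629, and that of Cacnb2 within 1 kb of the pseudogene Gm10849. Cacnb1 is the β subunit of skeletal muscle and is also found in brain, and Cacnb3 and Cacnb4 are prominent in brain.

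Among the HCN genes, Hcn2, common throughout the brain, scored 205.6, Hcn4, the main gene of pacemaker cells, 146.7 and Hcn3 127.9. At the edge of the 1 kb window, Cacna1c was just inside, with its best summit 974 bp downstream of a TSS, followed by Hcn2 at 794 bp.

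Best promoter summits of the members lay farther into the gene than those of all protein-coding genes, though not clearly farther than those of other channel and receptor genes. The median distance from the nearest TSS was 264 bp downstream (quartiles 54.5 and 551.5 bp) for the 31 members and 171 bp (49 and 327 bp) for all protein-coding genes with a summit. In 27 of the 31 members the summit was downstream of the TSS, or 87.1%, against 79.3%. A distance over 500 bp was found in 11 of the 31, or 35.5%, against 15.2% of all protein-coding genes with a summit. In glutamate receptor genes the median was 207 bp, with 32% over 500 bp, in GABA and glycine receptor genes 235 bp with 10%, and in potassium channel genes 209 bp with 19.2%. Those farthest downstream were Cacna1c (974 bp), Hcn2 (794 bp), Cacna1b (677 bp) and Scn1a (632 bp). In 6 members with no promoter summits over 5 kb apart, a close pair of promoter summits took the place of a single one. Scn8a and Cacna1a, which had sites farther away as well, also held close pairs. These scored 110.7 and 214.3 near the outermost start of Scn8a, and 32.6 and 37.9 at the end of Cacna1a. At Cacna1i a summit of 54.2 lay 181 bp upstream of the outermost TSS, inside the window printed above, and the best summit, of 200.2, downstream of the start. Hcn2 had the same arrangement, with 105.1 at 243 bp upstream and 205.6 at 794 bp downstream of its single TSS. Cacna2d3 differed with the GENCODE TSSs, since its upstream summit had the higher score, 172.5 against 156.2. From the nearest RefSeq TSS, however, both summits lay downstream, by 424 and 330 bp. Cacna1c and Cacna1d each had a pair at an inner start, 89.4 and 138.5 kb from the outermost TSS, and in both the upstream summit of the pair scored 115.8. By position, 17 of the best summits lay in introns of the gene, 12 in exons and 2 upstream of it. The file gives single positions and not intervals, so the width of these peaks is not known.

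The channel genes are long, with a median of 111 kb against 17.4 kb for all protein-coding genes, and many start at several places. In 8 of 36 members, promoter summits lay over 5 kb apart, against 5.62% of all protein-coding genes. Separate sites are commoner in long genes, and within classes of length the figures were 4 of 11 members against 17.9% from 100 to 200 kb and 4 of 9 against 29.2% at 200 kb and over. No shorter member had separate sites. The 8 genes were Scn1a, Scn2a, Scn8a, Cacna1a, Cacna1e, Cacna2d2, Cacnb2 and Cacnb4.

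At Scn1a the stronger summit, at 66409432 with a score of 230.4, lay 632 bp downstream of an internal TSS of a protein-coding transcript and 31.4 kb from the outermost start. The summit near the outermost start, at 66440128, scored 147.2. Each also lay within 1 kb of a TSS of a non-coding gene, Gm13630 and the antisense gene Gm13629. At Scn2a both sites had high scores, with 211.5 at 65620956 near the outermost start and 202.0 at 65668977, which is 212 bp downstream of a protein-coding TSS 48.2 kb into the gene. At Cacna1e the inner site, 158.6 kb from the outermost start, scored 193.1 and the outer site 151.2. At Cacnb4 the inner site, 118.8 kb into the gene, scored 215.3 and the outer site 147.2. Cacnb2 had 3 sites, of 183.4, 140.1 and 154.4 from the 5′ to the 3′ side. In Scn1a, Cacna1e and Cacnb4 the inner site thus had the higher score, and in Scn2a and Cacnb2 the outermost.

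The other genes had 1 strong site and weak ones. Cacna1a (ENSMUSG00000034656, chromosome 8, 84388440 to 84640246, plus strand) was marked at 84416334 (167.0), 550 bp downstream of a protein-coding TSS and 27.9 kb from the outermost start. It also held summits of 32.6 and 37.9 at its very end, near the TSS of a processed transcript, and of 3.12 near that of a retained-intron transcript. The second site of Cacna2d2, in the last part of the gene, scored 30.4 and that of Scn8a 6.60. With the outermost TSS of each gene only, 24 members had a promoter summit in place of 31. The 7 that no longer did were Cacna1a, Cacna1c, Cacna1d, Cacna1g, Cacna2d4, Cacnb2 and Cacnb3.

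**Figure D2:**
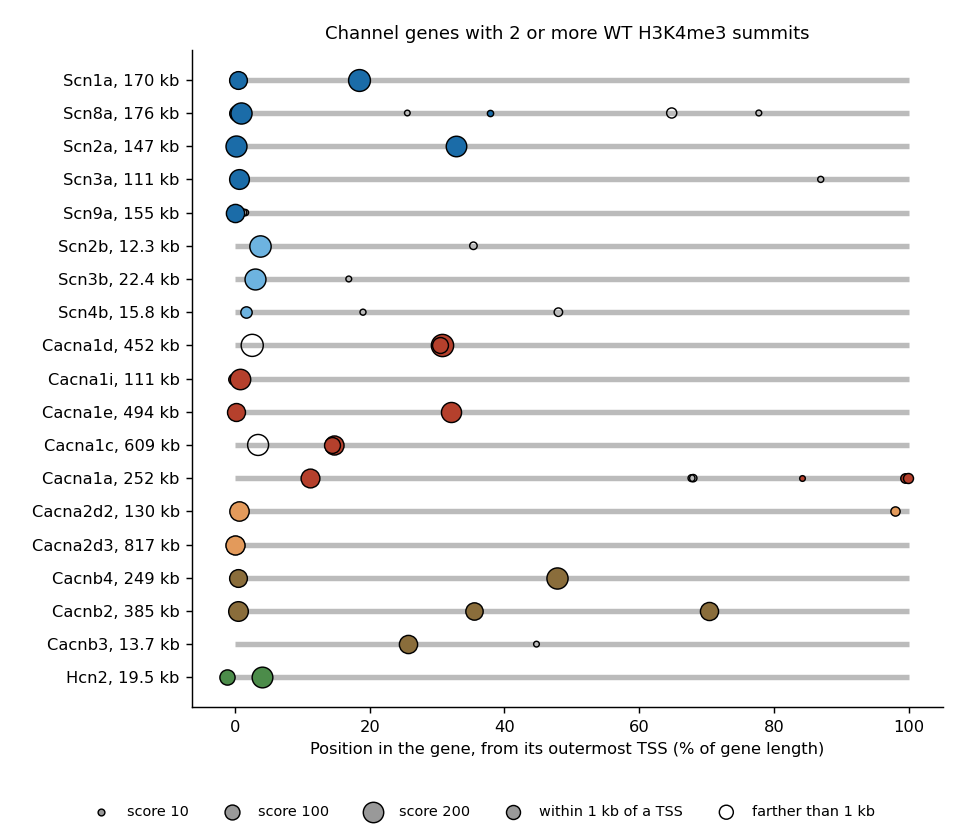
Positions of WT H3K4me3 summits along the channel genes named in the text that have 2 or more, as percent of gene length from the outermost TSS, with gene lengths at the left. Circle area grows with the score, filled circles lie within 1 kb of a TSS of the gene and open ones farther away; Scn1a, Scn2a, Cacna1e, Cacnb2 and Cacnb4 show large filled circles far apart, and Cacna1c and Cacna1d each show 1 large open circle near the start.

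Summits inside the gene and over 1 kb from all its TSSs were found in 12 of 36 members, 18 summits in all, against 14.7% of all protein-coding genes. The count depends on the limit, and with 500 bp in place of 1 kb it was 21 of 36 against 21.6%, and with scores of 102.3 or more only 3 of 36 against 3.22%. By length, they were found in 5 of 11 members under 50 kb (9.17% of all protein-coding genes of that length), 0 of 5 from 50 to 100 kb (22%), 3 of 11 from 100 to 200 kb (36.2%) and 4 of 9 at 200 kb and over (56.9%). Their scores were mostly low, with 8 under 10 and 3 at or above the median of the list. The 3 highest included one of 211.5 in Cacna1c and one of 236.1 in Cacna1d. The weak ones included 2 in Scn9a, 1594 and 2121 bp downstream of a TSS, and 3 in Scn8a, of which the highest scored 39.2 and lay in an exon.

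The summits inside Cacna1c and Cacna1d both sit at the start of another gene. Cacna1c (chromosome 6, 118587240 to 119196418, minus strand) overlaps the 5′ part of Dcp1b, which is transcribed from the opposite strand, and its summit of 211.5 lay 177 bp downstream of a TSS of Dcp1b. Cacna1d (chromosome 14, 30039939 to 30491455, minus strand) overlaps Dcp1a in the same way, and its summit of 236.1 lay 175 bp downstream of a TSS of Dcp1a. Dcp1a and Dcp1b encode mRNA-decapping proteins. The paralogy extends further: Cacna2d4 follows Cacna1c and holds Lrtm2 on the other strand, and Cacna2d3 lies near Cacna1d and holds Lrtm1. The paired promoters differed in score. Cacna1c had 172.6 (115.8 with RefSeq TSSs alone) against 240.0 for Cacna1d, and Dcp1b 211.5 against 236.1 for Dcp1a. Lrtm2 was marked at 254.2, while Lrtm1 had no promoter summit. Conversely, Cacna2d3 was marked at its own outermost TSS (172.5) and Cacna2d4 was not.

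CpG content is given as the ratio of CpGs found to those that the base composition predicts, over 500 bp on each side of a TSS, and each gene is represented by its TSS with the highest value. All 25 members with a value of 0.5 or more had a promoter summit, against 94.3% of the 13132 protein-coding genes of that kind. Below 0.5, a limit chosen after the values were seen, 6 of 11 members had one, against 20.6% of 8806 protein-coding genes. The 6 were Scn1a (0.443), Scn2a (0.408), Scn2b (0.226), Scn3a (0.485), Scn7a (0.203) and Cacna2d4 (0.468). As described above, the summit of Cacna2d4 also lay near a TSS of Lrtm2. With TSSs of protein-coding transcripts only, Cacna2d4 was unmarked. The 5 without a summit were the 5 unmarked members named above, at 0.286 to 0.499. Scores of the 6 CpG-poor marked genes were 24.96 to 254.2 with a median of 215.3, whereas CpG-poor protein-coding genes with a summit had a median of 65.9 (quartiles 17.2 and 167). For the 25 CpG-rich members the order was the opposite, with a median of 181.2 against 201.9 (152.6 and 232.3).

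The value used for a gene is the highest over its TSSs and need not be that of the marked start, so CpG content was also measured around the best summits. It was under 0.5 there in all 6 CpG-poor marked members, against 87.8% of CpG-poor protein-coding genes with a summit. It was also under 0.5 in 4 of the 25 CpG-rich members (16%, against 5.64% of CpG-rich protein-coding genes with a summit). These 4 were Cacna1a (0.306), Cacnb4 (0.318), Cacna1c (0.384) and Scn9a (0.45). Over 500 bp on each side of the best summit it was 0.273 at Scn1a, 0.335 at Scn2a, 0.292 at Scn2b and 0.184 at Scn3a. The median was 0.624 for the 31 members and 0.697 for all protein-coding genes with a summit. Scn2b and Scn4b, 8.32 kb apart, ran against each other, with a value of 0.226 and a score of 219.0 for the former and 0.744 and 52.5 for the latter. The limit of 0.5 runs between close neighbours, since Scn10a, which was unmarked, stood at 0.499 and Scn9a, which scored 156.1, at 0.502.

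**Figure D3:**
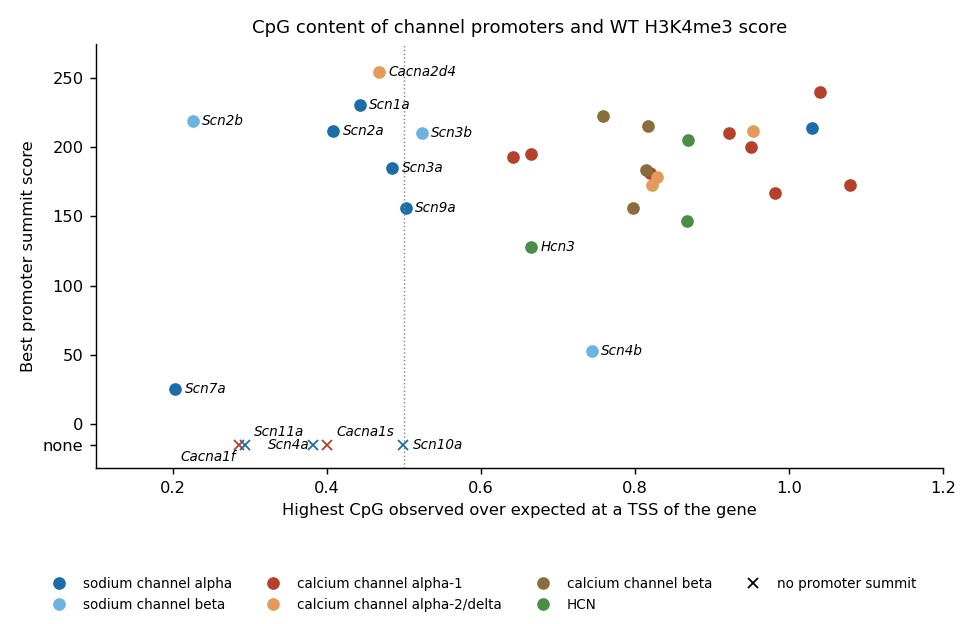
Score of the best WT promoter summit of each channel gene named in the text against its CpG content (observed over expected, at the TSS with the highest value), with crosses for genes without a promoter summit and a dotted line at 0.5. Left of the line, Scn1a, Scn2a, Scn2b, Scn3a and Cacna2d4 lie at 185.4 or more, Scn7a lies at 24.96, and the 5 genes without a promoter summit stand at the bottom. The summit of Cacna2d4 also lies near a TSS of Lrtm2.

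Short motifs, none of which contains another, were searched on both strands in 500 bp on each side of the outermost TSS. The TATA box TATAAA was found in 5 of 36 members, or 13.9%, against 32.3% of all protein-coding promoters. The GC box GGGCGG was found in 26 members, or 72.2%, against 60.4%, CCAAT in 69.4% against 70.7% and the E-box CACGTG in 16.7% against 17.1%. REST is a repressor of neuronal genes outside neurons. The left part of its site, TTCAGCACC, was found in 0 members and in 1.53% of all promoters, and the right part, GGACAG, in 66.7% and 58.7%. These are counts of letters in this window only, and some windows belong to starts that carried no mark.

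For the wider machinery, 34 genes listed as channel partners were looked up, including auxiliary subunits, anchors and modulators of these channels. The list also took in Nalcn, which is in none of these families, with Unc79, Unc80, Fam155a and Fam155b. Of the 34 genes, 29 had a promoter summit, or 85.3%, against 64.7% of all protein-coding genes. The median score of the marked partners was 192.1 (quartiles 106 and 226.6). It was not higher than that of all protein-coding genes with a promoter summit, 194.6 (129.8 and 230.2). The highest were Ank3 (283.5), the ankyrin that gathers sodium channels at the axon initial segment, Ank2 (266.8), Fgf14 (257.2), which binds the sodium channel tail, Pex5l (249.96), an auxiliary subunit of HCN channels, and Rims1 (247.2), which holds calcium channels at the active zone. The lowest were Cabp1 (4.45), Cacng6 (15.9), Rem1 (18.3), Cacng4 (33.3) and Stac (68.3). Cacng1 and Stac3, partners of the skeletal muscle calcium channel, had no promoter summit, like Kcne2, Fam155b (Tmem28 in GENCODE) and Cacng8. The last of these held 4 summits inside the gene.

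Beside other channel and receptor genes, the 86.1% of sodium, calcium and HCN channel genes with a promoter summit stood between the 96.2% of 26 glutamate receptor genes and the 77.7% of 94 potassium channel genes. For 26 GABA and glycine receptor genes it was 76.9%. Median scores of the marked genes were 209.7, 169.5 and 203.1 for these groups, against 185.4 here. In glutamate receptor genes 84.6% had a summit at or above the median of the list, in GABA and glycine receptor genes 65.4% and in potassium channel genes 52.1%. No test of these differences was possible in 1 pooled list.

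**Figure D4:**
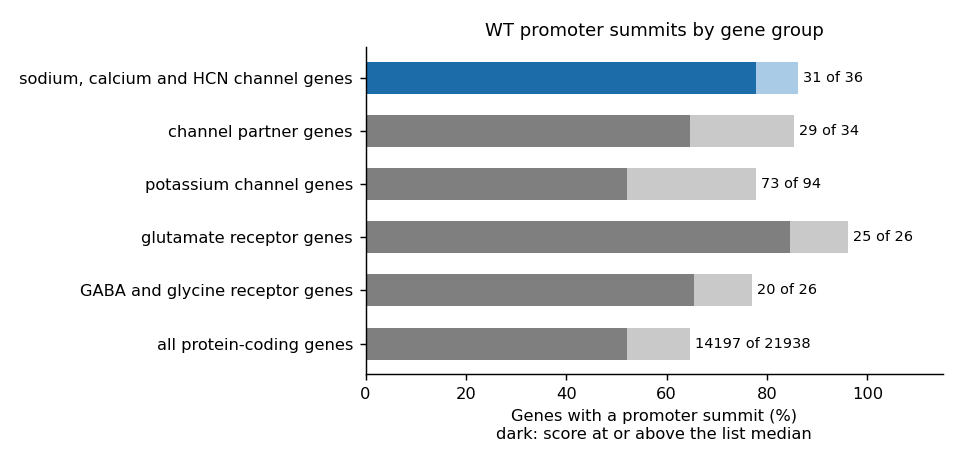
Percent of genes with a WT promoter summit in sodium, calcium and HCN channel genes (blue) and in other gene groups (grey), with the number of genes at the end of each bar. The dark part of a bar is the share whose best summit reached the median score, which is 77.8% for the channel genes and 52% for all protein-coding genes.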

How the data were processed

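The series holds 11 H3K4me3 samples from amygdala nuclei (2 WT, 3 of each mutant genotype) and 4 inputs. According to the Methods and the submitters' processing notes, Bowtie was used by the authors for alignment to mm10, only unique alignments were kept, and peaks were called with MACS2 2.1.0.20140616 against the input at a q-value under 0.1 and a fold enrichment over 1. They deposited 1 file of WT summits, each spanning 1 bp, with a score whose scale the file does not name. The deposited score is taken as −log10 of the q-value, and its lowest value was 1.18. The list carries no read counts, so the depth per sample could not be set beside the scores.

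From this list, the summits within 1 kb of any TSS of each of 21938 protein-coding genes (GENCODE M21, GRCm38, which is mm10) were found, and the highest was kept. Gene-body summits lay inside a gene and over 1 kb from all its TSSs. Members are named, apart from some that are not reported here. Partner genes are named if they lacked a promoter summit or were among the 5 highest or 5 lowest, and Fam155b was matched through a RefSeq synonym. The potassium, glutamate and GABA groups were chosen by symbol, leaving out Grid2ip, which is no receptor. The members and lists were chosen with earlier results of these data known. Assignment was tested on simulated summits. No p-value is given, because summits of 1 pooled list are not replicates. Alternatives are given at the end. Scripts ran under Python 3.11.15 (pandas 2.3.3, numpy 2.4.6, pysam 0.24.0, scipy 1.17.1 and matplotlib 3.10.9), and samtools 1.23.1 indexed the genome.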

Additional observations from a re-analysis of the deposited data

How the results depend on the processing

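No paired analysis was possible because both WT animals share 1 list of summits, so leaving out a replicate was not possible either. The number of channel genes with a promoter summit, 31, ranged from 24 (outermost TSS only) to 33 (window of 3 kb), and that of partner genes, 29, from 22 to 32. The window of 3 kb added Cacna1f and Cacna1s, through summits near TSSs of their neighbours Ccdc22 and Ascl5. The median score of marked channel genes, 185.4, was 164.4 with a window of 500 bp, 164.3 with the outermost TSS only, 184.4 with TSSs of protein-coding transcripts only, 194.1 if only summits of 102.3 or more were used and 189.2 with scores of at least 10. The share of all protein-coding genes, 64.7%, was under the same settings 57.1%, 58.2%, 63.5%, 52% and 62.7%, and it was 67.1% with 3 kb and 65.6% with RefSeq TSSs added, an alternative chosen after seeing the data. The share of the channel genes was above that of all protein-coding genes under every setting run, and their median score below it. The number of channel genes with a gene-body summit, 12, was 21 with a limit of 500 bp (21.6% of all protein-coding genes) and 3 when scores of 102.3 or more were required (3.22%). Setting aside summits near a TSS of any gene left 10. A single pooled list with no depth limits every value to these 2 mice together.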
